A study of Mus musculus with 24 samples.

Results

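Hspa5, Hsp90b1, Dnajb9, Herpud1, Xbp1, Ddit3, Atf4, Trib3 and Asns are genes of the response to stress in the endoplasmic reticulum (ER) and to a shortage of amino acids. They were taken by name, and all 9 were on the array, out of 27962 gene names. They were read by 13 of the 41174 probes, and where a gene had several probes the one with the highest mean intensity was the main one. The arrays measured RNA from whole colon and whole liver of 12 female C57BL/6 mice, 12 weeks of age. All of the mice were born to dams kept on high-fat food with little selenium and folate (HF-Low) before mating and through gestation and lactation. At weaning 6 of the offspring stayed on high-fat food poor in both nutrients (HF-low-low), and 6 received high-fat food in which selenium and folate were sufficient (HF-low-suf). Every mouse therefore shared the early diet and the high fat, and the groups differed in the diet after weaning. No mouse had a standard diet or was given an ER stressor, and per the study's methods the mice were fasted and re-fed before the tissues were taken.

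Proteins that enter the ER are folded there by chaperones such as the products of Hspa5 and Hsp90b1. When unfolded protein builds up, sensors in the ER membrane start the unfolded protein response, in which the transcription factors XBP1 and ATF6 raise chaperone and degradation genes. Phosphorylation of the initiation factor eIF2alpha lowers protein synthesis in general but favours translation of ATF4, and ATF4 then raises Ddit3, Trib3, Asns and other genes. The same ATF4 branch is started by an amino acid shortage, without ER stress, and the shared eIF2alpha and ATF4 pathway is called the integrated stress response. XBP1 is activated by splicing of its mRNA and ATF4 largely by translation, and neither step was measured by these probes.

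Promoter sequence is shown for 4 of the 5 members whose window held a binding motif in full, since these letters mark which branch a gene is known to answer to. The window ran from 250 bases before the transcription start to 50 bases from it, and it was given for 9 of the 9 genes (RefSeq, mouse build GRCm38.p6). The ER stress response element (ERSE) was searched as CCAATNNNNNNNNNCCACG, its relative ERSE-II as ATTGG and CCACG parted by any 1 base, the ATF4 site known as CARE as TGATGNAA, and the XBP1 site UPRE as TGACGTGG, each on both strands. Of 32851 mouse promoters, 0.119% held ERSE, 0.0365% ERSE-II, 3.97% CARE and 0.676% UPRE. The stretches below run 5′ to 3′ along the gene, with the motifs in capitals. That of Hspa5 is chr2:34771970-34772089 on the plus strand, that of Hsp90b1 is chr10:86705445-86705674 on the minus strand, that of Herpud1 is chr8:94386309-94386428 on the plus strand, and that of Asns is chr6:7693210-7693269 on the minus strand.
Hspa5: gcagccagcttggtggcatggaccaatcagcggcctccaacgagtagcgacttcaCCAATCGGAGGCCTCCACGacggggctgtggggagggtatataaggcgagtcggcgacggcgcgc
Hsp90b1: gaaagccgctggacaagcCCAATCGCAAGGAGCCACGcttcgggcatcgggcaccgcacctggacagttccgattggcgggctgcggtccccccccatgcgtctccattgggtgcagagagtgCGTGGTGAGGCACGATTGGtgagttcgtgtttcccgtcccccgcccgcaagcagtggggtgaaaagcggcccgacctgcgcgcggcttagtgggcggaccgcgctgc
Herpud1: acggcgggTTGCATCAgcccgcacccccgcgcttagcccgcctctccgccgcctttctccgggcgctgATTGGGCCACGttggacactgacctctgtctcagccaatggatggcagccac
Asns: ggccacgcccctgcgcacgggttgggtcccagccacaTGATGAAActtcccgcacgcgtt

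The capitals are an ERSE in Hspa5, from base −65 to base −47 before the start, and an ERSE on each strand in Hsp90b1, from −212 to −194 and from −107 to −89. Herpud1 held an ERSE-II from −52 to −42 and a CARE, read on the opposite strand, from −112 to −105. Asns held a CARE from −23 to −16. Trib3 held a CARE on the opposite strand, from base 15 to base 22 after the start, in a stretch not printed here. None of these letters were found in the windows of Dnajb9, Xbp1, Ddit3 and Atf4, and none of the 9 windows held UPRE. A match is a description of the letters and not a site shown to be bound.

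Each array carried the RNA of 1 tissue of 1 mouse in Cy3 (green) and a common reference pool in Cy5 (red). Per the study's methods the pool was made from liver and intestinal RNA of all mice. Values are log2 ratios of sample over reference, so 0 is the level in the pool, and a value says nothing of one gene's level against another's. The mean of 10 skeletal muscle markers had a median of −4.86 over the colons and −4.24 over the livers. For 10 pancreatic acinar markers it was −2.96 and −2.44. Both lists thus lay below the pool in both tissues, and what else the pool held was not tested. The share of spots clearly over background in Cy3 ranged from 26.1% to 71.9% between arrays, and Cy3 signal over background (median of an array) from 3.77 to 7.22. All 4 groups were on each of the 6 slides, with 3 slides scanned on a first day and 3 on a second. On 2 arrays, HF-low-suf replicate 5 of colon and HF-low-suf replicate 4 of liver, the Cy5 signal was 18.2 and 12.7 times the background, against 5.43 to 7.62 on the others. The tissue labels held: 9 of 9 measured hepatocyte markers were higher in liver and 10 of 10 colon epithelium markers were lower, and no array of one tissue overlapped with the other in the mean of either list. The main probes were well above background on all 24 arrays for 6 of the 9 genes. The other 3 were Ddit3 (12 of 12 colons and 11 of 12 livers), Trib3 (6 of 12 colons and 12 of 12 livers) and Asns (12 of 12 colons and 8 of 12 livers).

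The response to selenium and folate after weaning was asked first. In neither tissue did any of the 9 genes pass the test between the diets: 0 of 9 main probes, and 0 of 13 probes in all, passed the study's threshold in limma (an unadjusted P under 0.01 and a fold over 1.5). Of all probes, 0.168% passed it in colon and 0.117% in liver. At an unadjusted P under 0.05 there were also 0 of 13 member probes in either tissue, against 1228 probes of the array in colon and 877 in liver, and none of the array's probes had an adjusted P under 0.05. Differences are given as HF-low-suf minus HF-low-low, with the direction taken from the dyes in the labels. For the probes in the study's supplementary lists, this direction was opposite to the sign of the fold change given there, in both tissues. The tissue markers fit the labelled dyes (sample in Cy3), and whether the diet labels or the direction of the study's contrast differ was not tested.

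**Figure D1:**
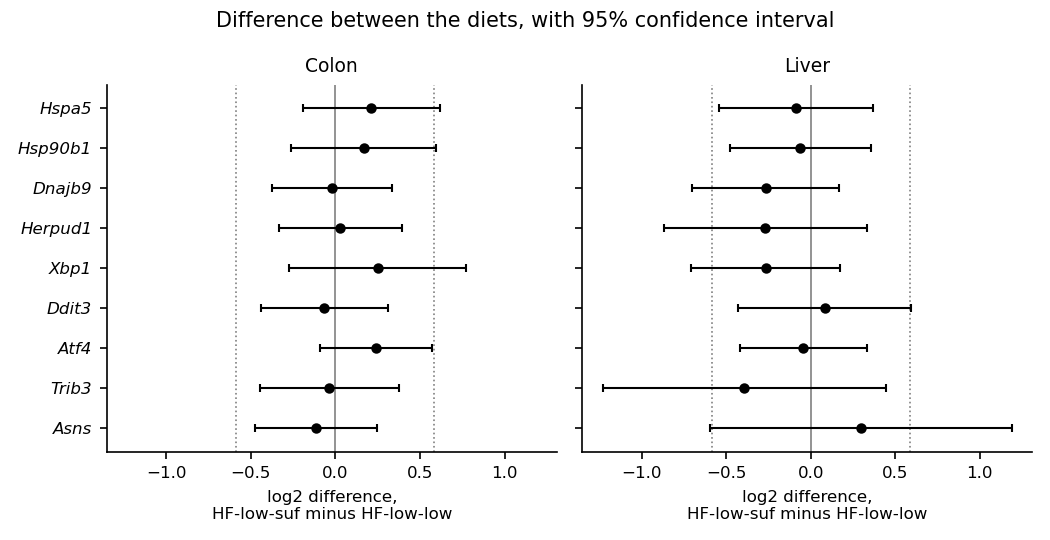
The log2 difference between the diets (HF-low-suf minus HF-low-low) with its 95% confidence interval for the main probe of each gene, in colon and in liver, from limma with 6 arrays per group. All 18 intervals cross 0, and those in liver reach further than those in colon for Trib3 and Asns.

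In colon the 9 differences ran from −0.11 (Asns) to 0.25 (Xbp1) with a median of 0.03, beside a median of −0.01 over all probes, and the lowest unadjusted P was 0.142 in limma. Their 95% confidence intervals lay within a 1.5-fold change in either direction for 6 of the 9 genes. In liver the differences ran from −0.39 (Trib3) to 0.30 (Asns) with a median of −0.09, beside 0.01 over all probes, and the lowest unadjusted P was 0.211. The interval lay within 1.5-fold for 3 of the 9 genes in liver, so a change of that size was within the interval for the other 6.

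By role, the chaperones and their partners come first. For Hspa5 the difference was 0.21 ± 0.19 (SE, limma) in colon and −0.09 ± 0.21 in liver. Hsp90b1 gave 0.17 ± 0.20 in colon and −0.06 ± 0.19 in liver on its main probe. Its second probe had the lowest unadjusted P of the 13 probes in colon, with a difference of 0.37 ± 0.21 (limma P = 0.0994, exact permutation P = 0.143) and HF-low-suf higher on 5 of 6 slides. Dnajb9 gave −0.02 ± 0.17 in colon and −0.27 ± 0.20 in liver, and its 3 probes did not share a sign in colon (−0.02, 0.23 and 0.11). For Herpud1 the difference was 0.03 ± 0.17 in colon and −0.27 ± 0.28 in liver. On the second probe of Dnajb9 in colon, where HF-low-suf was higher on 5 of 6 slides, the difference exceeded the SD within a diet (0.18), with an exact permutation P of 0.0649.

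Of the transcription factors, Atf4 differed by 0.24 ± 0.16 (SE, limma) in colon and −0.04 ± 0.17 in liver, and Ddit3 by −0.07 ± 0.18 and 0.08 ± 0.24. Xbp1 differed by 0.25 ± 0.25 in colon. Trib3 and Asns had the highest standard errors of the main probes in liver. Trib3 differed by −0.04 ± 0.19 in colon and −0.39 ± 0.39 in liver, and Asns by −0.11 ± 0.17 and 0.30 ± 0.42. On the main probes the liver values of both genes were higher on HF-low-suf on 3 of 6 slides and lower on the other 3. The second probe of Trib3 differed by −0.21 ± 0.14 in colon and −0.28 ± 0.22 in liver. In colon it was lower in HF-low-suf on 5 of 6 slides, and the difference exceeded the SD within a diet (0.19), with an exact permutation P of 0.0736. That probe was well above background on 3 of 12 colons. Xbp1 in liver was the only member lower in HF-low-suf on 6 of 6 slides, by −0.27 ± 0.21 (SE, limma), with an exact two-sided permutation P of 0.245 over all 12 livers. Within a slide its difference lay between −0.42 and −0.16. With the slide as a block the SE was 0.10 and the unadjusted P 0.0322, with an adjusted P of 1.0 over all probes (limma), so it passed neither threshold. An exact sign-flip permutation test over the 6 slides, added after the values had been seen, gave P = 0.0312, the smallest that 6 slides can give, and of 26 such tests (13 probes in both tissues) this was the only one under 0.05.

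Whether the diet difference itself differed between the tissues was tested as an interaction over all 24 arrays. No member passed (0 of 9 main probes and 0 of 13 probes), where 1.25% of all probes passed the same threshold. The lowest unadjusted P among the main probes was 0.122 in limma. The median of the 9 interaction values was −0.28, with 7 below 0, beside 0.03 over all probes.

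Liver and colon of the same mouse were then compared over both diets. Of the 9 genes, 7 differed at an adjusted P under 0.05 (limma, mouse as a random block): Hspa5, Hsp90b1, Dnajb9, Herpud1, Atf4 and Trib3 were higher in liver, and Asns was lower. Such a difference was common, since 38.3% of all probes passed, 19.4% as higher and 19% as lower. Among the 19080 probes well above background in at least 6 arrays of a tissue the share was 69.1%, with 33.2% higher and 35.96% lower. The median of the 9 differences was 0.55, beside 0.02 over all probes. With arrays centred on their median in place of loess, 32.9% of the called probes were higher in liver, against 50.5% with loess, and Atf4 was then at −0.01 and not called. In bulk tissue, fewer cells of a type and less RNA per cell cannot be told apart.

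**Figure D2:**
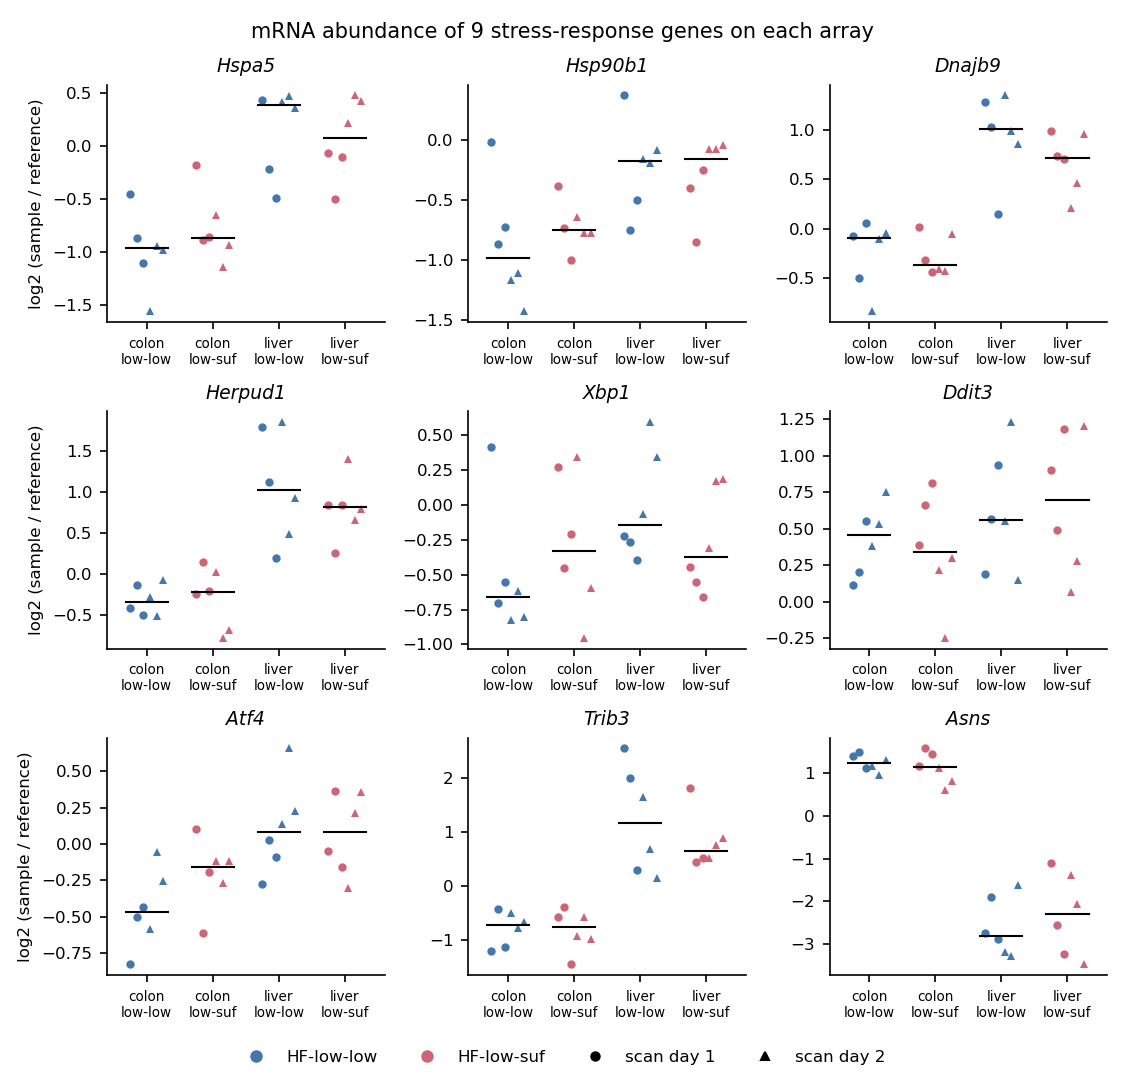
Log2 ratio of sample over reference for the main probe of each of the 9 genes on every array, by tissue and diet. Points are single arrays (circles and triangles for the 2 scan days) and bars are medians of 6 arrays. Dnajb9, Herpud1 and Trib3 lie higher in every liver than in every colon, Asns lies lower, and the diets overlap in each panel.

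Of the chaperones, Hspa5 encodes BiP, the main ER chaperone of the HSP70 family and the protein that holds the stress sensors inactive. Its probe lies at chr2:34783421-34783480 (build mm7, plus strand). In colon its log2 ratio was between −1.56 and −0.46 (median −0.97) on HF-low-low and between −1.15 and −0.18 (median −0.88) on HF-low-suf. In liver it was between −0.49 and 0.47 (median 0.39) on HF-low-low and between −0.50 and 0.48 (median 0.072) on HF-low-suf. The tissues overlapped at their edges, with some livers below the highest colon, while liver was higher than colon in 12 of 12 mice. The difference was 1.0 ± 0.14 (SE), or 2.0-fold, with an adjusted P of 7.47e-07 in limma. It was 0.57 in the mice of the first scan day and 1.43 in those of the second. An exact sign-flip permutation test over the 12 mice gave P = 0.000488, the smallest that 12 mice can give.

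Hsp90b1 encodes GRP94, the HSP90 chaperone of the ER. Its main probe lies at chr10:86249236-86249295 (mm7, minus strand). In colon it was between −1.43 and −0.014 (median −0.98) on HF-low-low and between −0.99 and −0.38 (median −0.75) on HF-low-suf. In liver it was between −0.75 and 0.38 (median −0.17) on HF-low-low and between −0.85 and −0.040 (median −0.16) on HF-low-suf. The ranges of the tissues overlapped widely, and liver was higher in 10 of 12 mice. The difference was 0.55 ± 0.13 (SE), or 1.47-fold, with an adjusted P of 0.00114 in limma. It was 0.22 in the mice of the first scan day, where it did not pass (adjusted P = 0.529, limma), and 0.88 in those of the second. A second probe, 7559 bases from the main one, gave 0.78, with an adjusted P of 0.00326, but 0.16 in the mice of the first scan day and 1.39 in those of the second.

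Dnajb9 encodes ERdj4, an ER cochaperone of BiP that is a known target of XBP1. Its main probe lies at chr12:42082310-42082369 (mm7, minus strand). In colon it was between −0.83 and 0.060 (median −0.088) on HF-low-low and between −0.44 and 0.017 (median −0.36) on HF-low-suf. Livers lay between 0.15 and 1.35 (median 1.01) on HF-low-low and between 0.21 and 0.99 (median 0.72) on HF-low-suf. Every liver was above every colon on this probe. The difference was 1.07 ± 0.12 (SE), or 2.10-fold, with an adjusted P of 5.04e-08 in limma. Both other probes, 120 and 596 bases away, gave 1.04 and 0.94.

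Herpud1 encodes HERP, a membrane protein of the complex that removes misfolded proteins from the ER for degradation. Its probe lies at chr8:92984261-92984320 (mm7). In colon it was between −0.51 and −0.075 (median −0.35) on HF-low-low and between −0.78 and 0.14 (median −0.23) on HF-low-suf. In liver it was between 0.20 and 1.86 (median 1.02) on HF-low-low and between 0.26 and 1.40 (median 0.82) on HF-low-suf. No liver overlapped with a colon. The difference was 1.24 ± 0.16 (SE), or 2.36-fold, with an adjusted P of 1.90e-07 in limma, and liver was higher in 12 of 12 mice.

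Of the transcription factors Xbp1, Atf4 and Ddit3, only Atf4 passed between the tissues, and not with median centring. Xbp1 encodes the factor that is spliced in the unfolded protein response, and its probe, at chr11:5476970-5477029 (mm7), was not described as telling the spliced form from the unspliced one. In colon it was between −0.82 and 0.41 (median −0.66) on HF-low-low and between −0.95 and 0.34 (median −0.33) on HF-low-suf. In liver it was between −0.39 and 0.59 (median −0.15) on HF-low-low and between −0.66 and 0.18 (median −0.38) on HF-low-suf. The tissues overlapped over most of their range, and liver was higher in 7 of 12 mice. The difference of 0.25 ± 0.16 (SE) did not pass, with an adjusted P of 0.247 in limma, and it was −0.13 with median centring.

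Atf4 encodes the transcription factor at the head of the integrated stress response, and its probe lies at chr15:80341130-80341189 (mm7). It was between −0.83 and 0.10 in the 12 colons and between −0.30 and 0.66 in the 12 livers, so the tissues overlapped, and liver was higher in 10 of 12 mice. The difference was 0.41 ± 0.11 (SE), or 1.33-fold, with an adjusted P of 0.00225 in limma, and −0.01 with median centring. Ddit3 encodes CHOP, a factor downstream of ATF4 that is tied to cell death under lasting stress. It was between −0.25 and 0.81 in colon and between 0.066 and 1.23 in liver. Liver was higher in 9 of 12 mice, but the difference of 0.26 ± 0.14 (SE) did not pass in limma (adjusted P = 0.161). It did pass with plain background subtraction, with no background correction and with the scanner software's own processed signals (adjusted P of 0.0334, 0.0282 and 0.00309), and with median centring it was −0.01.

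Trib3 and Asns, both known targets of ATF4, differed between the tissues in opposite directions. Trib3 encodes a pseudokinase that binds the kinase AKT and ATF4. Its main probe lies at chr2:152078476-152078535 (mm7, minus strand). In colon it was between −1.20 and −0.43 (median −0.72) on HF-low-low and between −1.44 and −0.40 (median −0.75) on HF-low-suf, where 6 of 12 arrays were well above background. Livers lay between 0.15 and 2.53 (median 1.16) on HF-low-low and between 0.44 and 1.81 (median 0.64) on HF-low-suf. Every liver was above every colon. The difference was 1.82 ± 0.21 (SE), or 3.52-fold, with an adjusted P of 4.48e-08 in limma. The second probe, 670 bases away and dimmer (well above background on 3 of 12 colons and 6 of 12 livers), was higher in liver in 11 of 12 mice, with a difference of 0.79. On most arrays its spots were too dim to give the size of that difference.

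Asns encodes asparagine synthetase, which makes asparagine from aspartate and glutamine. Its probe lies at chr6:7628080-7628139 (mm7, minus strand). In colon it was between 0.95 and 1.48 (median 1.22) on HF-low-low and between 0.61 and 1.57 (median 1.13) on HF-low-suf. Livers lay between −3.27 and −1.61 (median −2.81) on HF-low-low and between −3.47 and −1.12 (median −2.31) on HF-low-suf. The gap between the lowest colon and the highest liver was wider than the range within either diet in colon. It was narrower than the range within HF-low-suf in liver. Asns was 12.3-fold lower in liver (log2 difference −3.62 ± 0.22, SE), with an adjusted P of 9.25e-14 in limma, and it was lower in 12 of 12 mice, by 4.82-fold to 25.5-fold. The spot was well above background on 8 of 12 livers, so the size of these folds is uncertain.

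**Figure D3:**
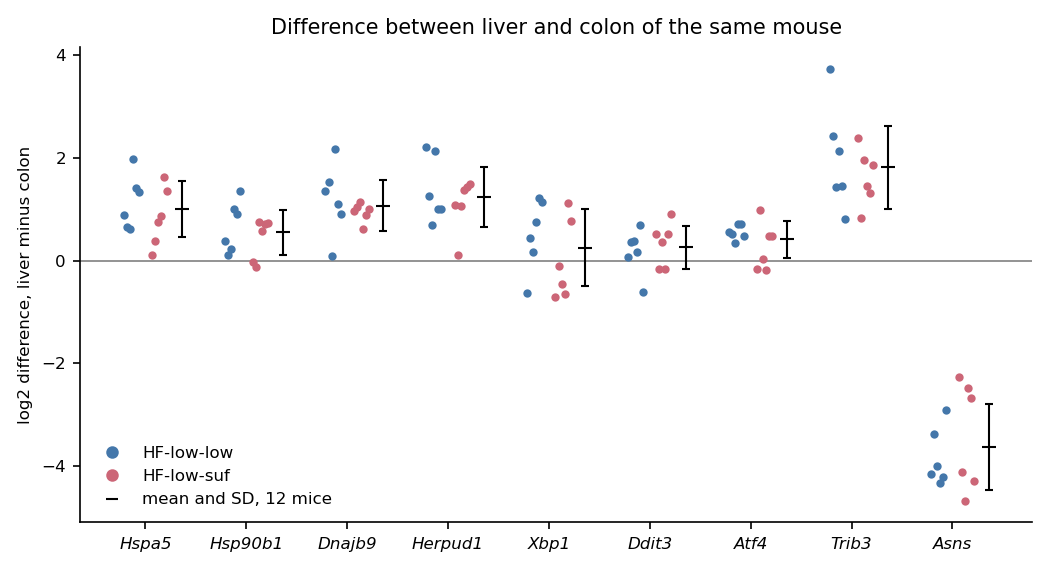
Log2 difference between liver and colon of the same mouse for the main probe of each gene. Points are the 12 mice, coloured by diet, and bars are the mean ± SD. All 12 points lie above 0 for Hspa5, Dnajb9, Herpud1 and Trib3 and below 0 for Asns, while points of both signs occur for Hsp90b1, Xbp1, Ddit3 and Atf4.

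In all, 4 of the 9 main probes (Dnajb9, Herpud1, Trib3 and Asns) had no overlap between the tissues on any array, as did 12.5% of all probes. The livers also differed more among themselves than the colons for Asns, Trib3 and Herpud1. The SD within a diet was 0.83 in liver and 0.29 in colon for Asns, a ratio of 2.83, and 1.77% of 9113 bright probes had a higher ratio. The ratio was 2.22 for Trib3 (4.80% higher) and 1.84 for Herpud1 (9.18% higher), beside a median of 1.01 over the bright probes. The other main probes had ratios of 0.77 (Xbp1), 0.93 (Hsp90b1), 1.13 (Hspa5), 1.19 (Atf4), 1.31 (Dnajb9) and 1.44 (Ddit3). The probes other than the main ones gave 2.10 and 1.65 for Dnajb9, 2.11 for Trib3 and 1.87 for Hsp90b1, the last a probe that differed by 1.30 between the scan days in liver. On 4 liver arrays the Asns spot, and on 6 colon arrays the Trib3 spot, was not well above background, and no test was made of these ratios.

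Markers of other cells also varied among the livers. The mean log2 value of 10 pancreatic acinar markers was between −2.95 and −1.24 over the livers, and that of 10 colon epithelium markers between −4.58 and −2.95. The 3 livers highest in both lists (HF-low-suf replicates 4 and 5 and HF-low-low replicate 6) had Asns at −1.38, −2.06 and −1.61. On these livers 10, 3 and 6 of the 10 acinar markers were well above background, and the first is the array with the bright reference, where 8.75% of spots were flagged. The liver with the lowest Asns, at −3.47, had the lowest acinar value, but the liver with the highest Asns, at −1.12, was not among the 3, with an acinar value of −2.38. That liver, HF-low-suf replicate 1, had the highest mean of 10 adipocyte markers, at 2.13 with 8 of the 10 well above background, against −0.89 to 0.24 in the other 11 livers. It also had the highest Trib3 of its diet, at 1.81. Without this mouse the tissue difference was 1.74 for Trib3 and −3.74 for Asns, and without this array the diet difference in liver was −0.59 for Trib3 and 0.061 for Asns, in place of −0.39 and 0.30. HF-low-suf replicate 2 stood apart in the mean of 10 skeletal muscle markers, at −2.89 against −4.92 to −3.98 in the other livers. It had the lowest Hspa5 (−0.50) and the lowest main-probe Hsp90b1 (−0.85) of the livers. The part of these cells in the values was not tested.

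The scan days were compared after the values had been seen. Within liver, 1 of the 13 member probes passed an adjusted P under 0.05 between the days, where 0.0364% of all probes did. This was the second probe of Hsp90b1, higher on the second day by 1.30 (adjusted P = 0.00736, limma). The second day minus the first was 0.29 for the main probe of Hsp90b1, 0.55 for Hspa5 and 0.57 for Xbp1, none of which passed (adjusted P of 0.465, 0.160 and 0.124). It was −0.012 for Dnajb9, and 15.5% of all probes had an unadjusted P under 0.05 between the days in liver. In colon the day difference was −0.31 for Hspa5, −0.36 for the main probe of Hsp90b1 and −0.37 for Xbp1, opposite in sign to liver. It was 0.068 for the second probe of Hsp90b1 and −0.10 for the main probe of Dnajb9, with the same sign as in liver. In colon 0 of 13 probes passed (3069 probes of the array had an unadjusted P under 0.05, limma). Asns, at −0.37, was the only member with an unadjusted P under 0.05 between the days in colon.

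The liver to colon difference was also taken within each day. For Hspa5 it was 0.57 ± 0.28 (SD) in the 6 mice of the first day and 1.43 ± 0.36 in the 6 of the second, ranges of 0.11 to 0.89 and 0.87 to 1.98. For Hsp90b1 it was 0.22 ± 0.31 and 0.88 ± 0.28, and within the first day alone it did not pass (adjusted P = 0.529, limma). For Xbp1 it was −0.22 ± 0.46 and 0.73 ± 0.70, so that it passed within the second day (adjusted P = 0.0129) and had the opposite sign within the first. Each day held 3 mice of either diet. As a difference between days over all probes, none of these passed in limma (0 of 13 member probes and 0% of all probes at an adjusted P under 0.05, with 2401 probes at an unadjusted P under 0.05). The second probe of Hsp90b1 had the lowest unadjusted P, 4.52e-05 (exact permutation P = 0.00433), for 0.16 ± 0.35 and 1.39 ± 0.62. The unadjusted P was 0.000563 for Hspa5, 0.0107 for the main probe of Hsp90b1 and 0.00182 for Xbp1, and the exact two-sided permutation P was 0.00433, 0.00866 and 0.0281. For Dnajb9, Herpud1, Ddit3, Atf4, Trib3 and Asns the unadjusted P was 0.106 or higher on every probe. Livers of the first day also had fewer spots well above background, 26.1% to 38.7% against 33.3% to 59.6%. Their mean hepatocyte marker value was 1.24 to 1.94 (median 1.56) against 1.81 to 1.95 (median 1.88). The part of either in the result was not tested.

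**Figure D4:**
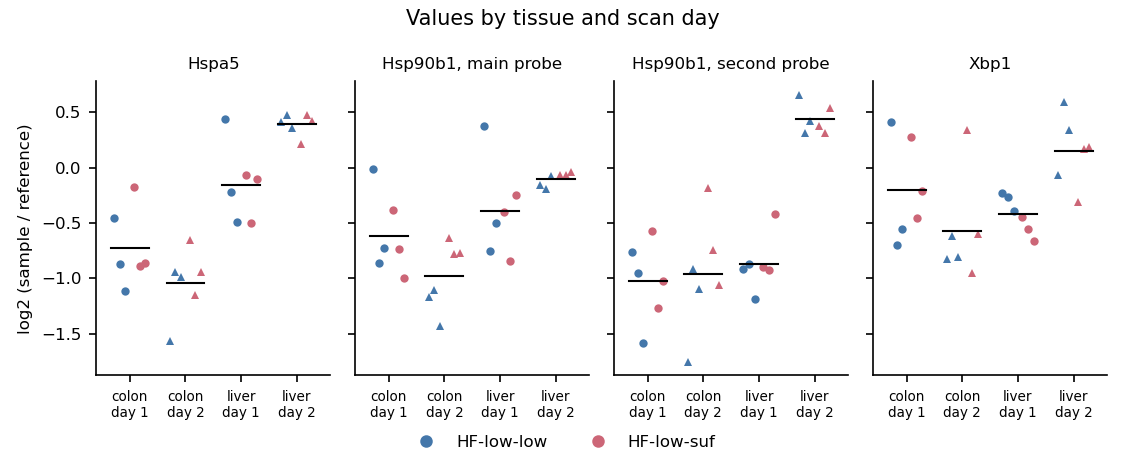
Log2 ratio of sample over reference by tissue and scan day for Hspa5, both probes of Hsp90b1 and Xbp1. Points are single arrays coloured by diet and bars are means of 6 arrays. The tissues lie closer together on the first scan day, where the liver to colon difference was 0.57 for Hspa5 and 0.22 for the main probe of Hsp90b1, than on the second, where it was 1.43 and 0.88.

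How the genes varied together between mice was described by correlation of the main probes over the 12 mice of a tissue, for 36 pairs in each. The median Pearson r was 0.10 in colon and 0.09 in liver, with 20 and 21 of the 36 pairs above 0. Of the 72 pairs, 2 had an adjusted permutation P under 0.05 for r, and 0 for Spearman's rho (both pairs had an unadjusted P under 0.05 for rho as well). In colon the pair was Hspa5 and Xbp1, with r = 0.83 (permutation P = 0.00038, adjusted 0.0137) and rho = 0.85 (adjusted 0.0569). It was 0.91 without the 2 mice farthest from the median of Hspa5, 0.78 and 0.86 within HF-low-low and HF-low-suf, and 0.86 and 0.72 within the scan days. Of 13836 bright colon probes, 0.188% had as high an r with Hspa5 and 1.23% with Xbp1.

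In liver the pair was Hspa5 and Hsp90b1, with r = 0.83 (permutation P = 0.00038, adjusted 0.0137) and rho = 0.82 (adjusted 0.0662). It was 0.75 without the 2 farthest mice and 0.76 and 0.93 within the diets. Within the first scan day it was 0.90, but within the second it was −0.35, so it did not hold within both days. Of 9763 bright liver probes, 1.14% had as high an r with Hspa5 and 0.512% with Hsp90b1. With median centring 8 pairs passed. The liver pair was among them, at 0.91, but the colon pair of Hspa5 and Xbp1 was not, with r = 0.68, and the only colon pair to pass was Herpud1 and Asns (0.88). With the 2 farthest mice left out 0 pairs passed for r.

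**Figure D5:**
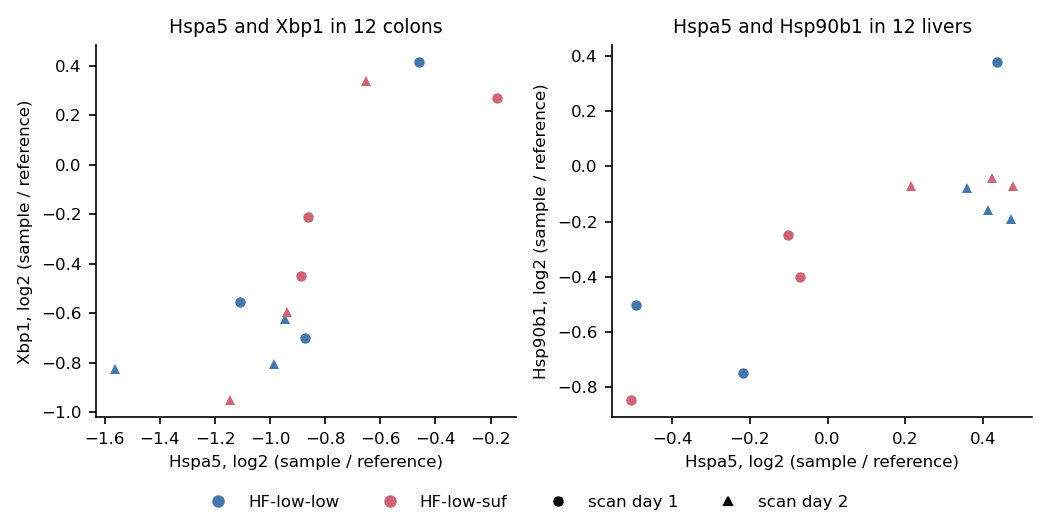
Main probe values of Hspa5 against Xbp1 in 12 colons and of Hspa5 against Hsp90b1 in 12 livers, as log2 ratios of sample over reference. Each point is a mouse, coloured by diet, with circles and triangles for the scan days. The colon points follow a line on both days (r of 0.86 and 0.72), and the liver points do so on the first day (0.90) and not on the second (−0.35).

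The colon with the highest Xbp1 was HF-low-low replicate 1, at 0.41, and it also had the highest Hspa5 of its diet, at −0.46. Plasma cells and goblet cells, both secretory, are rich in these transcripts. The summed log2 value of 8 plasma cell markers was highest in that colon, at 0.53, in a range of −9.10 to 0.53 over the colons. Only 4 of the 8 were well above background on that array, and 3 to 6 on any colon, so this sum rests partly on dim probes. The summed value of 6 goblet cell markers was lowest in HF-low-low replicate 1, at 3.05, in a range of 3.05 to 7.77. Other colons did not follow that order. The colon with the next highest Xbp1, at 0.34, had plasma cell markers at −4.39, and HF-low-low replicate 4, with Xbp1 at −0.82, had them at −0.31. The part of either cell type was not tested.

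Across the 12 livers, the genes most like Hspa5 among 7957 with a bright probe were Kdelr1 (r = 0.96), Calr (0.95), Plekhc1 (0.94), Hdlbp (0.94) and Gtf2i (0.93). Kdelr1 encodes a receptor that returns escaped ER proteins, and Calr encodes the chaperone calreticulin. Hsp90b1 was 97th in this order and Xbp1 326th. On the second scan day alone r fell to 0.69 for Kdelr1, 0.42 for Calr and 0.39 for Hdlbp, and was 0.80 and 0.81 for Plekhc1 and Gtf2i. All livers share the reference pool and the scan days, and these values are a description.

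Other genes of the pathways were read from 5 lists, with 119 genes on the array. For diet, 0 of 119 passed the study's threshold in either tissue in limma. Only the alanine aminotransferase Gpt2 in liver, and no gene in colon, had an unadjusted P under 0.05 in limma. Between the tissues 83 of the 119 passed (69.7%), 46 higher in liver and 37 lower, beside 38.3% of all probes and 69.1% of bright probes, where 84 of the 119 were well above background on all 24 arrays.

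Among the ER chaperones and folding enzymes, 9 of 23 were higher in liver and 7 lower, with a median difference of −0.09. The largest differences were 2.07 for the oxidase Ero1lb and 0.85 for Hspa13, and −0.80 for the lectin chaperone Canx and −0.77 for the oxidase Ero1l. Of 23 genes of ER-associated degradation and translocation, 11 were higher and 4 lower (median 0.18). Derl2, a part of the retrotranslocation machinery, stood at one end (1.23), and Edem3 (−0.78) and the translocon subunit Sec61b (−0.69) at the other. Both lists thus held genes that differed in the same direction as Hspa5 and Herpud1 and genes that differed in the opposite one.

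Among 22 sensors and regulators of the unfolded protein response, 7 were higher and 7 lower (median 0.11). The liver factor Creb3l3 was higher by 3.91 and the sensor Ern1 by 0.72, while Creb3l4 (−3.31) and the epithelial sensor Ern2 (−1.92) were lower in liver, where they were well above background on 6 and 1 of 12 arrays, so these sizes are uncertain. Of 31 genes of the integrated stress response, 12 were higher and 11 lower (median −0.01). Atf5 was higher by 3.39, and Fgf21, a hormone known as an ATF4 target, was at least 2.57-fold higher, since none of the colon arrays had it well above background (adjusted P = 7.04e-08, limma). Nupr1 (−4.40) and Ndrg1 (−2.79) were lower.

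Among 20 genes of amino acid synthesis and transport, 7 were higher in liver and 8 lower (median −0.03). Gpt2 (3.52) and Cth (3.18), which makes cysteine from cystathionine, were higher. The glutamine carrier Slc1a5 (−3.20) and the serine synthesis enzyme Phgdh (−2.40) were lower, as was Asns, and Phgdh was well above background on 7 of 12 livers. These genes were chosen by the size of their difference within each list, so the examples do not describe the lists as a whole.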

How the data were processed

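RNA of 24 tissue samples was measured on 24 two-colour Agilent arrays (sample in Cy3, common pool in Cy5, no dye swap). The deposited intensity values are scanner output per spot from Feature Extraction, before normalization between arrays. Here normexp (offset 50) was applied to mean signals and median backgrounds, followed by loess on every array. Control spots (1639 of 45018) and flagged outlier spots were left out, and spots of a probe were averaged. Differences were fitted over all 41174 probes in R 4.3.3 with limma 3.58.1 and statmod 1.5.0: diet within each tissue without covariates, tissue and diet by tissue with the mouse as a random block (correlation 0.158). Adjusted P values are by Benjamini-Hochberg. Labels tie both tissues to a mouse, and same-mouse arrays correlated between −0.03 and 0.28 (8 of 12 over 0.1). The study's threshold was used for diet and an adjusted P under 0.05 for tissue. Exact permutation tests were over mice or slides, and correlations used 100000 resamples. The scripts were tested on simulated data. All members and all their probes are named. From each pathway list the 2 largest tissue differences in each direction are named among called probes that, in the higher tissue, exceeded background clearly on 6 or more of 12 arrays. One gene that this rule names is not reported here. The members and lists were chosen with earlier results of these data known. The list of array targets and probe positions relative to exons were not used here. Precision is limited by 6 arrays per group.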

Additional observations from a re-analysis of the deposited data

Results flagged for a closer look

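In colon, Xbp1 of HF-low-low replicate 1 stood apart from its group at 0.41 (log2 ratio of sample over reference), with the nearest of the other 5 colons at −0.56 and a group median of −0.66. In liver, Trib3 of HF-low-suf replicate 1 stood apart at 1.81, with the nearest at 0.89 and a median of 0.64. The same array had the highest mean of 10 adipocyte markers among the livers, 2.13 against −0.89 to 0.24 in the other 11, and the part of these cells was not tested. The gap was 0.783 and 0.672 of the group's range, past Dixon's 95% limit for 6 samples. These were 2 of 36 sets of values examined, and chance gives about 1 in 20.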

How the results depend on the processing

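For diet in colon, diet in liver and diet by tissue, 0 members passed under 27, 27 and 24 alternatives. The replicate block and every array (for diet by tissue every mouse) left out in turn were among them. Quantile adjustment of spot intensities after loess, counted for each comparison, leaves the log ratios unchanged, so its outcome was fixed in advance. Use of the second probe can change only Hsp90b1, Dnajb9 and Trib3. For tissue the count was 7, and 5 to 8 under 26 alternatives: 7 with each mouse left out, 6 with median centring, 5 within scan day 1 (Hsp90b1 0.22 and Atf4 0.38 did not pass) and 8 within scan day 2. Differences changed sign by more than the main value's SE, or with a call, as follows, out of 29 sign changes for diet in colon, 16 for diet in liver and 4 for tissue in 243, 243 and 234 values. With median centring, tissue differences were −0.13 for Xbp1, −0.0080 for Ddit3 and −0.010 for Atf4, and within scan day 1 that of Xbp1 was −0.22. For diet in colon, Ddit3 was 0.14 in the Cy3 channel alone and 0.33 within scan day 1, Dnajb9 0.23 on its second probe, Hsp90b1 −0.17 and Asns 0.060 within scan day 1, and Herpud1 −0.19 within scan day 2. For diet in liver, Atf4 was 0.17 within scan day 1. The r of Hspa5 and Hsp90b1 in liver was −0.35 within scan day 2. Correlated pairs numbered 8 with median centring (the colon pair lost, at 0.68) and 0 with the 2 farthest mice left out, against 2. The cause was not tested. Probes of the whole array past the threshold (69 for diet in colon, 48 in liver, 514 for the interaction) numbered 13, 12 and 255 without background correction, 26, 2 and 179 with median centring, 3, 2 and 51 without dim probes (fewer probes tested), 23 to 257, 9 to 304 and 254 to 933 with 1 array or mouse left out, and 278 in colon within scan day 1. In liver they numbered 31 (119 for the interaction) with Feature Extraction's processed signals, 21 with Cy3 alone, 144 in a fit of all 24 arrays and 2 within scan day 2. In colon they numbered 113 with scan day as a block and 42 without the array of bright reference, an alternative chosen after seeing the data, as was the tissue difference within each day. Replicate numbers are those of slides. Same-numbered arrays of the 2 diets deviated together (r over 0.1) in 3 of 6 pairs in colon and 2 of 6 in liver, so they shared a slide and scan day but did not deviate together in every pair. The replicate block gave 92 probes in colon and 131 in liver. With the mouse as a fixed effect, or no replicate block, 7 members passed for tissue. The dim probes of Trib3 in colon and of Asns, Phgdh, Ero1l, Ern2 and Creb3l4 in liver limit these folds.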
